A study of Mus musculus with 6 samples.

Results

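The stefin genes Stfa1, Stfa2, Stfa2l1, Stfa3 and Cstb were followed in mouse skin RNA. The members were the rows whose gene symbol equals one of these names, and all 5 were found among the 57010 rows of the deposited table. They were picked with differences between the treatments in these same libraries already known, so their levels by treatment are given as a description, without a test. Each of the 6 libraries came from the skin of a different wild-type mouse at the close of a study of diabetic ulcers. CST, cortistatin by the title of the series and a somatostatin-like neuropeptide, had been applied in a gel to 3 of the animals. The remaining 3 had received a gel with Yoda1, a synthetic opener of the calcium channel Piezo1. The sources used here give neither strain, age and dose nor the way diabetes was induced, and skin without either drug was not analysed here. The labels name keratinocytes as well as whole skin; markers of fibroblasts, macrophages and muscle were all present, so the libraries were read as whole skin.

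Stefins are small inhibitors of papain-like cysteine proteases. They stay in the cytosol, bind in the active-site cleft of cathepsins B, H, L and S, and keep in check protease that leaks from lysosomes or is taken up. Stefin B, made from Cstb, is found in nearly every cell type, and its loss in humans causes a progressive myoclonus epilepsy. Stefin A is abundant in stratified epithelia, where human cystatin A is cross-linked into the cornified envelope, and in neutrophils. In the mouse the stefin A gene has been duplicated into a cluster on chromosome 16, and transcripts of several copies, Stfa2l1 among them, are known from neutrophils.

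The cluster spanned positions 36119946 to 36455392 of chromosome 16 on GRCm38 in the GENCODE M21 annotation and held 11 rows of the table. Stfa2l1 (ENSMUSG00000059657) lay at 36156811 to 36161953 on the plus strand and Stfa1 (ENSMUSG00000071562) at 36276951 to 36285373 on the plus strand. Stfa2 (ENSMUSG00000022902) lay at 36403992 to 36408457 and Stfa3 (ENSMUSG00000054905) at 36450537 to 36455392, both on the minus strand. Cstb (ENSMUSG00000005054) stood apart on chromosome 10, at 78425669 to 78427622 on the plus strand. Each member was annotated as protein coding, with its coding sequence in 3 exons.

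The second coding exon, 102 bases long in each of the 4 Stfa genes, is printed to show how close the copies are, since that limits how well reads can be told apart. Bases are given 5′ to 3′ on the coding strand from the GENCODE M21 transcripts, and capitals mark the 23 positions at which the 4 genes are not all the same.
Stfa2l1 (chr16:36159946-36160047, plus strand): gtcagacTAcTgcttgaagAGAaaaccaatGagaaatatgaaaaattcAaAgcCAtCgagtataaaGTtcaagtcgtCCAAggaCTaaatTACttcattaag
Stfa2 (chr16:36405130-36405231, minus strand): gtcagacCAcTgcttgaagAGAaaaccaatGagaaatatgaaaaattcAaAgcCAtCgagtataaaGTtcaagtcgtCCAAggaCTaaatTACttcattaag
Stfa1 (chr16:36280466-36280567, plus strand): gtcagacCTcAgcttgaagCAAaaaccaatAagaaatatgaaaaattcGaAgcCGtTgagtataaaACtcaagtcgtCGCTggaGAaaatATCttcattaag
Stfa3 (chr16:36452151-36452252, minus strand): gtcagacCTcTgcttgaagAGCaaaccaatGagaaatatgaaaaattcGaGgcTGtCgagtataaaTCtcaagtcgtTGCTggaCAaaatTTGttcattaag
Stfa2l1 and Stfa2 differed at 1 of these 102 bases, whereas Stfa1 and Stfa3 differed at 13, and Stfa2l1 and Stfa1 at 18. Over the whole coding sequence Stfa2l1 and Stfa2 were 96.4% identical, Stfa1 and Stfa3 79.6%, and Cstb was 52.1% to 57.5% identical to the 4 Stfa genes. The closest relative of Stfa1 was not a member: it was Cstdc5, named BC100530 in GENCODE M21, with 97.9% identity.

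How much of each transcript could give ambiguous reads was measured by cutting all annotated transcripts into windows of fixed length and looking for exact copies in another gene. Of the 50-base windows, such a copy existed for 24.6% in Stfa2l1, 22.5% in Stfa1 and 15.9% in Stfa2. Stfa3 and Cstb shared 0 at that length. There Stfa1 shared 19.4% with Cstdc5 and 9.01% with Cstdc6, and Stfa2l1 shared 16.8% with Stfa2. Of the 75-base windows of Stfa2l1, 7.83% had such a copy. The shares were 5.79% for Stfa2 and 9.15% for Stfa1, and 0 windows of Stfa3 or Cstb were shared. At 100 bases the share was 5.07% for Stfa1, all with Cstdc5, and 0 for the other 4 members, and at 150 bases it was 0 for all 5. The sources used here do not state the read length or how reads that map to several genes were counted. Values of Stfa2l1 against Stfa2, and of Stfa1 against Cstdc5 and Cstdc6, are uncertain to the extent that reads were exchanged.

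The 150 bases upstream of the RefSeq start are printed for the 4 Stfa genes and for Cstdc4, a cluster neighbour that followed Stfa2l1 across the libraries. They are RefSeq sequences on GRCm38.p6, 5′ to 3′ on the strand of the gene. Capitals mark the motif TTTAAA, which reads the same on both strands and resembles a TATA box. For Stfa2l1, Stfa3 and Cstdc4 the RefSeq start was also the GENCODE M21 gene start. The Stfa1 stretch lay wholly inside the gene as GENCODE M21 places it, and part of the Stfa2 stretch did.
Stfa2l1 (chr16:36156661-36156810, plus strand): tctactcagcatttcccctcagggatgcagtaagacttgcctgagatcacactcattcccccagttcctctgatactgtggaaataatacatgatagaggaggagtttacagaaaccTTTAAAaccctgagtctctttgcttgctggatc
Cstdc4 (chr16:36184062-36184211, plus strand): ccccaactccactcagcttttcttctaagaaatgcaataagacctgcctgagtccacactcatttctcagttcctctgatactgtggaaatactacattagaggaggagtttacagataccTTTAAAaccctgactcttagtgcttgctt
Stfa2 (chr16:36408364-36408513, minus strand): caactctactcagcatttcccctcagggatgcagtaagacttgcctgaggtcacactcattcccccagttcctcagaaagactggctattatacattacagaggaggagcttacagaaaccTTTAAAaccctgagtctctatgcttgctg
Stfa1 (chr16:36276998-36277147, plus strand): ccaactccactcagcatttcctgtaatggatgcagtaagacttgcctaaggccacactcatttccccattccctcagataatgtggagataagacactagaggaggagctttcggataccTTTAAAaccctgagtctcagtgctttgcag
Stfa3 (chr16:36455393-36455542, minus strand): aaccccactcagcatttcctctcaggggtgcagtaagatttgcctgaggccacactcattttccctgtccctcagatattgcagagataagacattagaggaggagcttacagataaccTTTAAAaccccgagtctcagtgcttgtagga
Stfa2l1 was 86.4% identical to Stfa2 over this stretch and 78.3% identical to Cstdc4. TTTAAA began 29 to 33 bases before the RefSeq start in all 5 of these related sequences. Of the 32851 RefSeq promoters, 6.8% held it anywhere in the same 150 bases and 1.42% held it within bases 45 to 21 before the start. Among other cluster genes it began 9 bases before the start in Cstdc5 and 77 in Csta3. It began 24 or 55 bases before the listed starts of Cstdc3, and Csta1 and Csta2 lacked it. The C/EBP core TTGCNNAA, searched on both strands, was found once in Stfa1 and not in these letters of the other 4, against 5.5% of all promoters. The AP-1 core TGANTCA, also searched on both strands, was in none of the 5 and in 4.2% of all promoters. The short ETS core GGAA occurred on one strand or the other in all 5, as in 80.8% of all promoters.

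Values are FPKM, fragments scaled to gene length and to the depth of the library, so levels of different genes are compared per length. Depth recovered from the steps of the values was 23791352 to 29620526 reads per library, and whole reads came out for all of the 14588 tested genes, whose mean reached 1 FPKM. Limma on log2(FPKM + 1) with Benjamini-Hochberg adjustment called 0 of these genes between CST and Yoda1 skin, 0% at an adjusted p under 0.05, and 584 genes (4.0%) had an unadjusted p under 0.05. Limma-voom on the recovered reads also called 0. The count was 136 (135 up in CST) when Yoda1 mouse 2 was left out and 8 when CST mouse 2 was. Marker levels set some libraries apart. The summed FPKM of 15 neutrophil genes was 11434.8, 2031.8 and 1831.0 in CST mice 1 to 3, against 1781.4, 830.8 and 4204.4 in Yoda1 mice 1 to 3. This sum follows mainly S100a8 and S100a9, at 3066.5 and 7553.4 FPKM in CST mouse 1 and 1486.5 and 2539.1 in Yoda1 mouse 3. Not every gene of the list ranked the libraries in this order, and Itgam was lowest in Yoda1 mouse 3, at 6.554 FPKM. Summed skeletal muscle markers (7 genes) ran from 6439.1 to 11927.9 FPKM in CST skin and from 104.8 to 4617.2 in Yoda1 skin. Fibroblast markers (6 genes) ran from 3754.4 to 6121.4 and from 3615.6 to 11408.9, and macrophage markers (8 genes) from 1172.2 to 1541.4 and from 869.1 to 3654.9, with Yoda1 mouse 3 the lowest for both.

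Stfa2l1 was the member with the widest range. It measured 1558.9, 135.0 and 226.7 FPKM in CST mice 1 to 3, against 66.23, 15.63 and 133.8 FPKM in Yoda1 mice 1 to 3. CST mouse 1 stood far above the other 5 libraries and Yoda1 mouse 2 far below them. The means were 640.2 ± 797.0 in CST and 71.9 ± 59.3 FPKM in Yoda1 skin (SD, n = 3 each), a ratio of 8.91, and the difference on the log2(FPKM + 1) scale was 2.77 (SE 1.0132). Without CST mouse 1 the means were 180.9 and 71.9 FPKM, a ratio of 2.52 (log2 difference 1.73). Without Yoda1 mouse 2 the ratio was 6.40 (log2 difference 1.94), and without Yoda1 mouse 3 it was 15.6. In bulk skin a larger number of cells that carry a transcript and more RNA per cell cannot be told apart.

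The groups did not overlap for Stfa2l1, the case in 1 of the 5 members; over all tested genes 6.59% had groups that did not overlap, 4.52% with every CST value above every Yoda1 value, and the members were chosen on this contrast. The gap itself was narrow. The lowest CST value, 135.0 FPKM in mouse 2, rested on 1567 reads, with an exact 95% Poisson interval of 128.4 to 141.8 FPKM. The highest Yoda1 value, 133.8 FPKM in mouse 3, rested on 1334 reads, with an interval of 126.7 to 141.2. These 2 libraries therefore did not differ beyond counting error, and the intervals cover that error only.

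**Figure D1:**
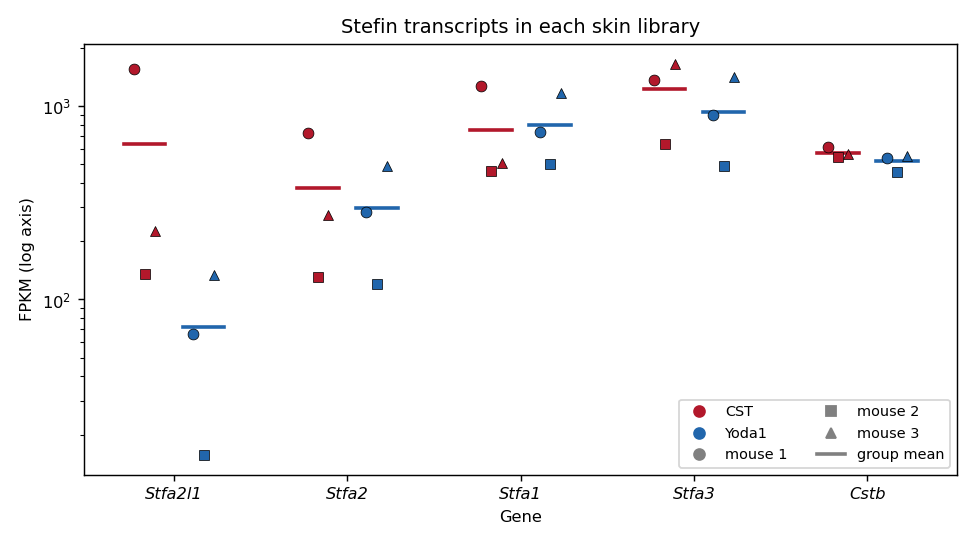
FPKM on a log axis for the 5 stefin genes, with CST libraries in red and Yoda1 libraries in blue, 1 point per mouse, mouse numbers by point shape and group means as bars. Stfa2l1 spread from 15.63 to 1558.9 FPKM over the 6 libraries, while Cstb stayed between 459.7 and 614.2.

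Stfa2 has nearly the same coding sequence as Stfa2l1 but not the same levels. It measured 723.8, 130.7 and 274.8 FPKM in CST mice 1 to 3, against 283.0, 120.5 and 488.9 FPKM in Yoda1 mice 1 to 3. The highest value was again CST mouse 1, but Yoda1 mouse 3 came next, and the groups overlapped. The means were 376.4 ± 309.3 and 297.5 ± 184.7 FPKM (SD, n = 3 each; ratio 1.27, log2 difference 0.21, SE 0.69). Leaving out CST mouse 1 gave a log2 difference of -0.43 and leaving out Yoda1 mouse 2 one of -0.33, whereas leaving out Yoda1 mouse 3 gave 0.68, so its sign hung on single libraries. Stfa2l1 stood at 2.15, 1.03 and 0.825 times Stfa2 in CST mice 1 to 3, against 0.234, 0.130 and 0.274 times Stfa2 in Yoda1 mice 1 to 3. That ratio compares genes per length within a library and does not depend on depth.

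Stfa1 encodes stefin A1, and both treatments covered nearly the same range of its levels. Its values were 1279.2, 464.5 and 506.5 FPKM in CST mice 1 to 3, against 738.5, 500.6 and 1175.3 FPKM in Yoda1 mice 1 to 3. CST mouse 1 and Yoda1 mouse 3 were the high libraries, and the others lay between 464.5 and 738.5. The means were 750.1 ± 458.7 and 804.8 ± 342.2 FPKM (SD, n = 3 each), with a log2 difference of -0.18 (SE 0.47). Leaving out CST mouse 1 gave -0.64, and leaving out Yoda1 mouse 3 gave 0.14.

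Stfa3 was the most abundant member, with rank 102 of all genes by mean FPKM. It measured 1361.7, 641.7 and 1664.5 FPKM in CST mice 1 to 3, against 901.4, 488.7 and 1426.5 FPKM in Yoda1 mice 1 to 3. Here CST mouse 3 was the highest library and Yoda1 mouse 3 the second, mouse 2 was the lowest of each group, and the groups overlapped. The means were 1222.6 ± 525.4 and 938.9 ± 470.0 FPKM (SD, n = 3 each), with a log2 difference of 0.40 (SE 0.49), which was -0.0011 without Yoda1 mouse 2 and 0.81 without CST mouse 2.

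Cstb, the broadly expressed stefin B gene, was the steadiest member. It measured 614.2, 548.7 and 565.5 FPKM in CST mice 1 to 3, against 541.1, 459.7 and 556.3 FPKM in Yoda1 mice 1 to 3. The groups overlapped, and the highest library was 1.34 times the lowest, against 99.7 times for Stfa2l1, 6.01 for Stfa2, 3.41 for Stfa3 and 2.75 for Stfa1. The means were 576.1 ± 33.99 and 519.1 ± 51.93 FPKM (SD, n = 3 each), with a log2 difference of 0.15 (SE 0.21).

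By mean level the order in CST skin was Stfa3, Stfa1, Stfa2l1, Cstb and Stfa2, and in Yoda1 skin it was Stfa3, Stfa1, Cstb, Stfa2 and Stfa2l1. In CST skin the values of each neighbouring pair in that order overlapped. In Yoda1 skin Stfa3 and Stfa1 overlapped, as did Stfa1 and Cstb and also Cstb and Stfa2, and Stfa2 overlapped Stfa2l1 only through the 120.5 FPKM of Stfa2 in mouse 2. Stfa2l1 made up 31.7%, 9.84% and 8.48% of the summed FPKM of the 4 Stfa genes in CST mice 1 to 3, against 3.33%, 1.39% and 4.15% in Yoda1 mice 1 to 3. Stfa1 made up 26.0%, 33.9% and 18.95% in CST mice 1 to 3, against 37.1%, 44.5% and 36.5% in Yoda1 mice 1 to 3. The shares of Stfa2 (9.52% to 14.7% in CST, 10.7% to 15.2% in Yoda1) and Stfa3 (27.7% to 62.3% in CST, 43.4% to 45.3% in Yoda1) overlapped. The 4 genes together summed to 4923.6, 1371.8 and 2672.6 FPKM in CST mice 1 to 3, against 1989.1, 1125.4 and 3224.6 FPKM in Yoda1 mice 1 to 3, which overlapped.

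**Figure D2:**
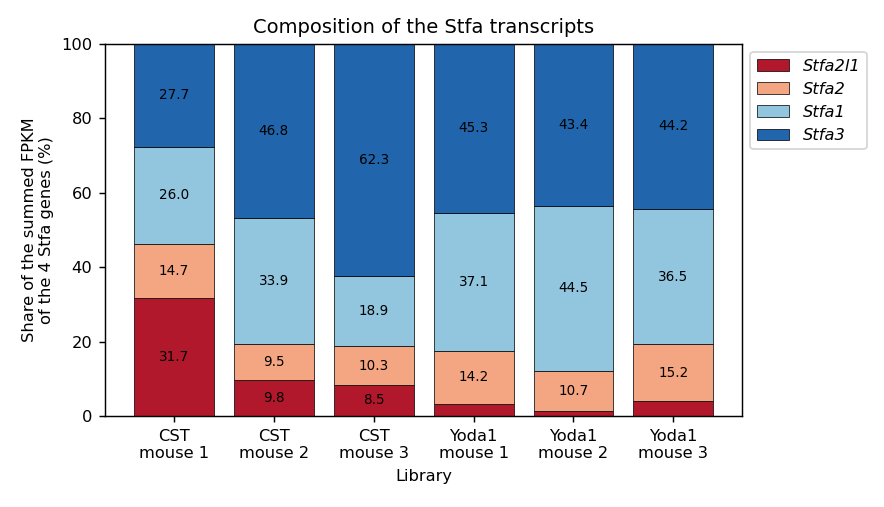
Stacked bars give the share in percent of the summed FPKM of the 4 Stfa genes that each gene took in each library, with CST mice on the left and Yoda1 mice on the right. Stfa2l1 took 8.48% to 31.7% in CST libraries and 1.39% to 4.15% in Yoda1 libraries.

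The remaining genes of the cluster showed whether neighbours shared the pattern of Stfa2l1. Of the 7 other cluster rows, 6 were tested, and Cstdc3, a pseudogene in GENCODE M21, stayed below the filter at 0.844 ± 0.167 and 0.373 ± 0.175 FPKM. None of the 6 passed limma (0 adjusted over all genes), and 1 had an unadjusted p under 0.05, as had 3.21% of all tested genes on the higher side. That was Cstdc4, named Gm5483 in GENCODE M21, with 607.7, 49.27 and 84.64 FPKM in CST mice 1 to 3, against 30.52, 6.572 and 64.36 FPKM in Yoda1 mice 1 to 3. Its groups overlapped through Yoda1 mouse 3, and the log2 difference was 2.46 (SE 1.04). Stfa2l1 stood at 2.57, 2.74 and 2.68 times Cstdc4 in CST mice 1 to 3, against 2.17, 2.38 and 2.08 times Cstdc4 in Yoda1 mice 1 to 3, so these levels moved nearly in step across a 99.7-fold range of Stfa2l1. The FPKM of Cstdc4 was computed over 1137 bases, the mean of its coding transcript of 414 and a retained-intron transcript of 1859, so its level against Stfa2l1 depends on that choice while the steadiness of the ratio does not.

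Csta2, whose coding sequence is close to that of Cstdc4, measured 122.3, 11.39 and 11.01 FPKM in CST mice 1 to 3, against 10.36, 4.100 and 25.07 FPKM in Yoda1 mice 1 to 3. CST mouse 1 was far above the rest, Yoda1 mouse 3 came next, and its log2 difference was 1.20 (SE 0.95). Cstdc5 was the most abundant cluster gene, with 5011.5, 2111.4 and 3021.1 FPKM in CST mice 1 to 3, against 2372.3, 1639.7 and 5971.1 FPKM in Yoda1 mice 1 to 3. Its highest library was Yoda1 mouse 3, and the log2 difference was 0.15 (SE 0.53). Csta1, Csta3 and Cstdc6 had log2 differences of 0.17, 0.15 and 0.22, and their groups overlapped. The 10 tested cluster genes, the 4 Stfa genes among them, had a median log2 difference of 0.22, and 9 of them were above 0, against a median of -0.01 and 47.2% above 0 over all tested genes. Apart from Stfa2l1, Cstdc4 and Csta2, each difference was smaller than its SE. The members were chosen with this contrast known and some copies may share reads, so the count is a description and no sign of a shift of the whole cluster. Stfa2l1 and Cstdc4 lay next to each other on the plus strand, and Csta3, at 0.15, lay between them and Csta2.

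**Figure D3:**
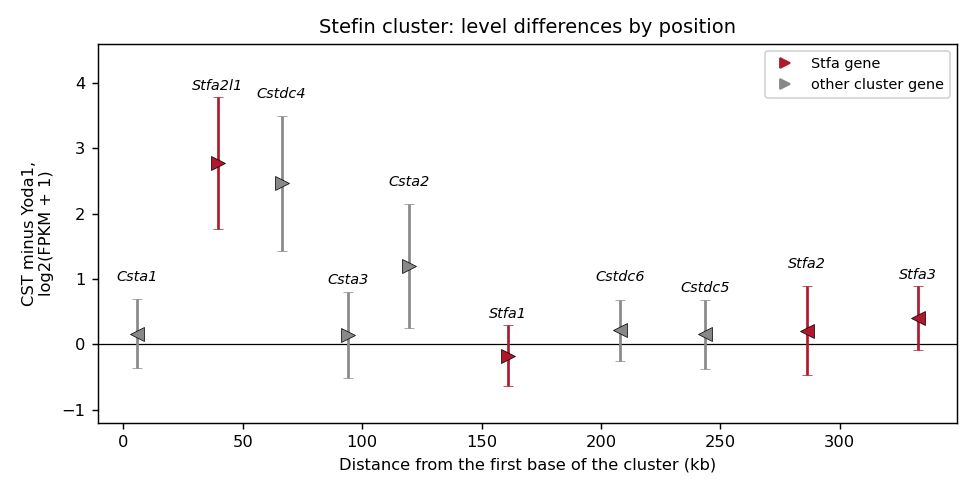
Each tested gene of the chromosome 16 cluster at its distance in kb from the first base of the cluster, with the CST minus Yoda1 difference on the log2(FPKM + 1) scale and its SE as bars; arrowheads point along the strand, and red marks the Stfa genes. Stfa2l1, Cstdc4 and Csta2 lie above 1, and the other 7 genes lie between -0.18 and 0.40.

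Markers of the cells in which stefins are known were set beside the members, with no claim on which cell made the transcripts. Of 15 neutrophil genes, 12 reached 1 FPKM in every library, and Ly6g was the one listed at 0 in a library (Yoda1 mouse 1). S100a9, a calprotectin subunit, measured 7553.4, 1170.0 and 1207.5 FPKM in CST mice 1 to 3, against 953.8, 410.8 and 2539.1 in Yoda1 mice 1 to 3. Retnlg, a resistin-like gene of neutrophils, measured 318.5, 52.77 and 39.14 in CST mice 1 to 3, against 31.37, 6.099 and 37.92 in Yoda1 mice 1 to 3. The chemokine receptor gene Cxcr2 measured 30.69, 22.95 and 8.945 in CST mice 1 to 3, against 10.16, 6.078 and 15.90 in Yoda1 mice 1 to 3. Csf3r, another fixed marker, measured 36.17, 34.73 and 8.654 in CST mice 1 to 3, against 16.48, 11.96 and 14.47 in Yoda1 mice 1 to 3. Stfa2l1 per S100a9 was 0.206, 0.115 and 0.188 in CST mice 1 to 3, against 0.0694, 0.0381 and 0.0527 in Yoda1 mice 1 to 3, whereas Stfa2l1 per Retnlg overlapped, with 2.56 to 5.79 in CST and 2.11 to 3.53 in Yoda1 libraries. Per Cxcr2 the ratio varied more and overlapped too, with 5.88 to 50.79 in CST and 2.57 to 8.42 in Yoda1 libraries. The 14 tested neutrophil genes had a median log2 difference of 0.89, 12 of them above 0 and 3 with every CST value above every Yoda1 value, and limma called 0. Over all tested genes the median was -0.01, 47.2% were above 0 and 4.52% had every CST value above every Yoda1 value. Granule genes of neutrophil precursors were low, 3.698 to 5.937 FPKM summed over 7 genes in any library, with Elane at 0 in some. The part of neutrophil number in the Stfa2l1 difference was not tested.

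Keratinocyte markers were read in the same way. Krt6a, a wound-induced keratin, measured 1892.6, 1603.6 and 1263.2 FPKM in CST mice 1 to 3, against 1148.5, 706.8 and 3825.1 FPKM in Yoda1 mice 1 to 3, and its highest library was the one in which Cstdc5 was highest. Krt1, a keratin of differentiating epidermis, measured 825.9, 1038.8 and 2547.2 in CST mice 1 to 3, against 649.8, 671.7 and 2292.9 in Yoda1 mice 1 to 3, high in mouse 3 of both groups as Stfa3 was. In CST mouse 1, however, Stfa3 was also high (1361.7 FPKM) while Krt1 was at its lowest CST value. Summed over 6 basal genes the range was 11081.6 to 11783.1 FPKM in CST and 8159.0 to 17988.9 in Yoda1 libraries. Over 11 suprabasal genes it was 8234.6 to 19393.0 and 7427.1 to 13321.7, and over 10 wound keratinocyte genes 8663.0 to 13043.2 and 5510.2 to 19182.6. Limma called 0 genes in these 3 lists, and their median log2 differences were 0.20, 0.53 and 0.04. The difference was above 0 for 6 of 6 basal, 10 of 11 suprabasal and 4 of 8 tested wound keratinocyte genes, against 47.2% of all tested genes. In 1 suprabasal gene, Flg2, every CST value lay above every Yoda1 value, as in 4.52% of all tested genes.

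Likeness of profiles was measured as the root mean square difference between log2(FPKM + 1) values centred on each gene's mean over the 6 libraries, so that 0 is an identical course. Stfa2l1 and Cstdc4 differed by 0.159 log2 units and Stfa2l1 and Stfa2 by 1.38, although the last pair is the closer one in sequence. Stfa1, Stfa2 and Stfa3 lay 0.450 to 0.580 from each other. Among 10 marker genes, the one nearest to Stfa2l1 was S100a9 (0.888, against a median of 2.02 over all tested genes). Retnlg, added after its values were seen, lay at 0.543 from Stfa2l1. The other neutrophil genes among the 10 lay farther from it, S100a8 at 1.160, Cxcr2 at 1.435 and Csf3r at 1.699. The wound keratin genes Krt16 and Krt6a lay at 1.656 and 1.692, nearer to Stfa2l1 than Csf3r was. The nearest to Stfa3 and to Stfa1 was the wound keratin gene Krt16 (0.357 and 0.414), the nearest to Stfa2 was S100a8 (0.510), and the nearest to Cstb was the basal keratin gene Krt5 (0.322). The medians over all tested genes were 0.737 for Stfa3, 0.709 for Stfa1, 1.022 for Stfa2 and 0.322 for Cstb, so Krt5 was no nearer to Cstb than a median gene. These are descriptions over 6 libraries that share a tissue.

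Outside the cluster, the 6 tested genes nearest to the mean profile of the 4 Stfa genes were Serpinb11 (0.260), Sprr2d (0.280), Homer1 (0.287), Gjb6 (0.336), Sprr2k (0.368) and Rybp (0.372), where the median gene lay at 1.015. Sprr2d and Sprr2k encode small proline-rich cornified envelope precursors, Gjb6 encodes connexin 30 and Serpinb11 is a clade B serpin. Sprr2k was low, at 0.161 to 2.994 FPKM over the libraries. Whether the 6 genes, Homer1 and Rybp among them, share a theme was not tested. Sprr2d measured 193.3, 57.82 and 85.30 FPKM in CST mice 1 to 3, against 45.41, 26.75 and 145.3 FPKM in Yoda1 mice 1 to 3. The 4 genes nearest to Cstb were Usp46 (0.014), Arid2 (0.028), Pfkfb4 (0.039) and Rpgr (0.042). The lists for single members were chosen after the members' values were seen. For Stfa2 the nearest were Sprr2j-ps (0.209), Gjb6 (0.371), Serpinb11 (0.384), Sprr2k (0.396) and Spink12 (0.420). Of these, Gjb6, Serpinb11 and Sprr2k were also among the genes nearest to the Stfa mean. Stfa2 is part of that mean, so the lists are not independent. Nearest to Stfa2l1 were Cxcl2 (0.409), a neutrophil-attracting chemokine gene, Retnlg (0.543), Tnf (0.560), the prostaglandin synthase gene Ptgs2 (0.601) and Acod1 (0.642). Nearest to Stfa3 were the kallikrein gene Klk9 (0.174), the late cornified envelope gene Lce3e (0.197) and the ceramide hydroxylase gene Degs2 (0.216). Sdr9c7 (0.220) and Mir132 (0.222) followed, the latter at 0 to 3.13 FPKM. Nearest to Stfa1 were the zinc finger gene Zfp51 (0.111), Pdpr (0.148), Zfp943 (0.167), Zfp68 (0.174) and Pdcd10 (0.181). Cxcl2 measured 2630.4, 383.2 and 729.6 FPKM in CST mice 1 to 3, against 127.3, 33.92 and 189.2 FPKM in Yoda1 mice 1 to 3.

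**Figure D4:**
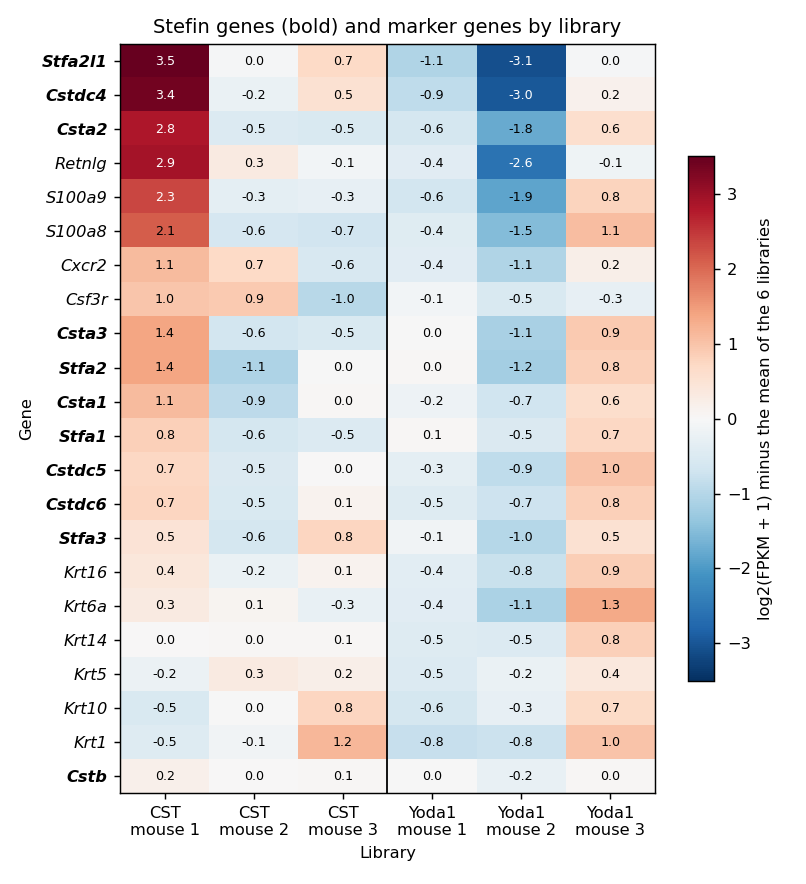
Colours and numbers give log2(FPKM + 1) of each gene minus its mean over the 6 libraries, with CST mice left of Yoda1 mice and stefin genes in bold. Stfa2l1, Cstdc4, Csta2, Retnlg, S100a9, S100a8, Cxcr2, Csta3, Stfa2 and Cstb peak in CST mouse 1 and are lowest in Yoda1 mouse 2. The swing is widest in Stfa2l1 (3.486 to -3.065) and narrowest in Cstb (0.171 to -0.247), which is nearly flat. Stfa3 is highest in CST mouse 3 and Cstdc5 in Yoda1 mouse 3.

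The cysteine cathepsins, among which are the targets of stefins, were read together with legumain, a lysosomal cysteine protease of another family. All 11 of these genes had a lower mean log2 level in CST than in Yoda1 skin, where 52.8% of all tested genes had a difference below 0. None passed limma after adjustment over all genes (0 in each direction), 1 had an unadjusted p under 0.05 (0.788% of all tested genes did so on the lower side), and in none did the groups separate. The median log2 difference was -0.36, against -0.01 over all tested genes. Ctss, cathepsin S of antigen-presenting cells, measured 314.4, 352.2 and 181.6 FPKM in CST mice 1 to 3, against 756.1, 657.4 and 329.5 FPKM in Yoda1 mice 1 to 3. Its groups overlapped through Yoda1 mouse 3, and the log2 difference was -1.006 (SE 0.39, limma adjusted p = 0.9999). Ctsb, cathepsin B, measured 854.3, 879.2 and 694.2 in CST mice 1 to 3, against 1533.6, 1470.9 and 624.7 in Yoda1 mice 1 to 3 (log2 difference -0.48, SE 0.38). Cathepsin H from Ctsh (-0.36), the bone and fibroblast protease cathepsin K from Ctsk (-0.44), the dipeptidase cathepsin C from Ctsc (-0.36) and legumain from Lgmn (-0.42) had differences of like size, each with a limma adjusted p of 0.9999. Ctsl, cathepsin L, measured 502.4 ± 37.9 in CST and 595.9 ± 244.5 FPKM in Yoda1 skin (SD, n = 3 each). Summed over the 11 genes the level was 2690.4, 2913.2 and 2135.5 FPKM in CST mice 1 to 3, against 4807.4, 4201.6 and 2224.1 in Yoda1 mice 1 to 3. Macrophage and fibroblast markers were likewise lowest among the Yoda1 libraries in mouse 3, and their part in the cathepsin values was not tested.

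Of 14 other cystatin genes, 4 were tested and 0 passed limma, with a median log2 difference of -0.13. Cst3, the secreted cystatin C, measured 841.8 ± 69.2 in CST and 967.5 ± 380.1 FPKM in Yoda1 skin (log2 difference -0.11). Cst6, the epidermal cystatin M/E, measured 404.3, 553.9 and 510.2 in CST mice 1 to 3, against 370.5, 237.8 and 568.4 in Yoda1 mice 1 to 3 (log2 difference 0.40, SE 0.34, limma adjusted p = 0.9999). Cst7, cystatin F of leukocytes, was near the filter at 1.35 ± 0.579 and 1.58 ± 0.517 FPKM, and Fetub, fetuin B, had a log2 difference of -0.59 with 38.43 FPKM in Yoda1 mouse 3 and 3.625 to 11.06 in the other libraries. Another 5 cystatin genes were listed at 0 in all 6 libraries.

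**Figure D5:**
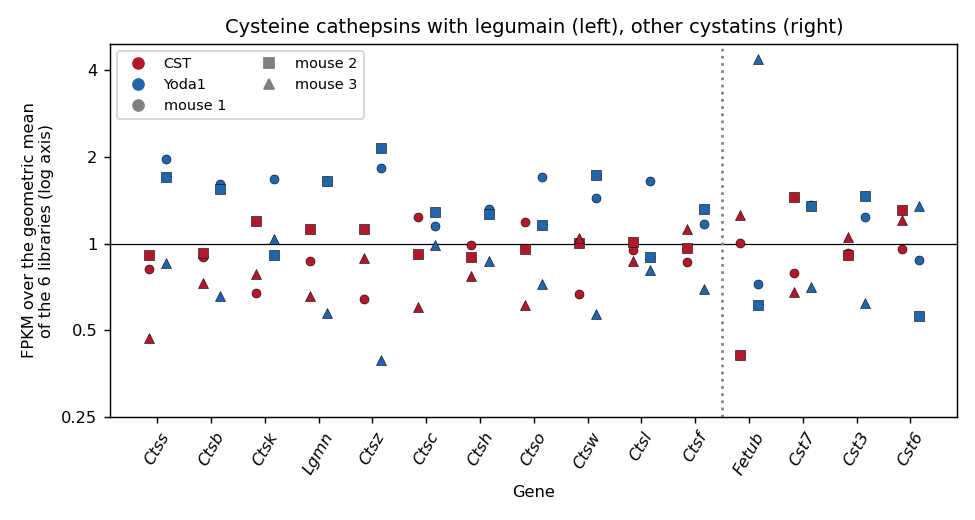
FPKM of each gene divided by its geometric mean over the 6 libraries, on a log axis, for 11 cysteine protease genes on the left of the dotted line and 4 cystatins on the right; red points are CST mice, blue points Yoda1 mice, and shapes give mouse numbers. Yoda1 mice 1 and 2 lie at the top for Ctss, Ctsb, Lgmn, Ctsz, Ctsh, Ctsw and Ctsf, and for Ctss the 3 CST mice measured 181.6 to 352.2 FPKM.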

How the data were processed

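The deposited table holds FPKM values made by the authors for 57010 genes in 6 libraries, with no counts. No source used here names the aligner, the counting tool, the read length or the strandedness; GRCm38 and mm10 are the builds in the submitters' processing notes. Of 52029 rows matched to GENCODE M21 on GRCm38 by Ensembl identifier, 2.8% had the same start, and positions in the text are therefore those of M21. Whole reads were recovered from the FPKM steps (within 0.01 reads, 100% of 14588 tested genes; 0 of 300 genes with deliberately wrong depths). The gene length these imply equalled the mean length of a gene's transcripts in 93.4% of 12124 genes with several transcripts. One read on a gene of 1 kb was worth 0.0338 to 0.042 FPKM.

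Groups were compared with limma 3.58.1 under R 4.3.3, by lmFit and trended eBayes, on log2(FPKM + 1). Tests were two-sided and Benjamini-Hochberg adjusted, threshold 0.05, over genes whose mean reached 1 FPKM. The fit was checked on simulated reads with the same dispersion (spread between replicates) for every gene. That check therefore does not cover the wide spread between mice seen here. Differences are CST minus Yoda1 and understate changes of low genes. Voom, on the recovered reads, used TMM (trimmed mean of M values) factors computed directly. Alignments used Biopython 1.88. The members and gene lists were chosen with earlier results of these data known. The genes named are the members, cluster genes above the filter, up to 6 cystatins and 6 cathepsins by smallest p, the nearest profiles (6 for the Stfa mean, 4 for Cstb; predicted names left out) and fixed marker genes, of which not all are printed; Retnlg, Cxcl2 and the nearest genes of single members were added after their values were seen. T cell markers (6 genes) summed to 10.9 to 18.5 FPKM in CST and 7.08 to 27.2 in Yoda1 libraries, and mast cell markers (6 genes) to 128.4 to 198.3 and 100.3 to 287.1. The mice of a group are labelled as separate animals. Mouse numbers were not taken to pair the libraries.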

Additional observations from a re-analysis of the deposited data

How the results depend on the processing

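The count of genes called by limma stayed at 0 in 11 of 13 alternatives: a pseudocount of 0.1, no filter, a mean of at least 5 FPKM, quantile normalization, upper quartile scaling, limma-voom on recovered reads, the mouse number as a block and 4 of the libraries left out. With 1 library left out it ran from 0 to 136 (8 without CST mouse 2, 136 without Yoda1 mouse 2); the cause was not tested. Of the cathepsins, legumain and other cystatins 0 were called in any alternative. For the members, the log2 differences with 1 library left out ran from -0.64 to 0.14 for Stfa1, -0.43 to 0.80 for Stfa2, 1.73 to 3.49 for Stfa2l1, -0.0011 to 0.81 for Stfa3 and 0.07 to 0.21 for Cstb. With all 6 libraries the planned rescalings kept Stfa2l1 between 2.70 and 2.85. The mouse number used as a block called 0 genes, with 680 at an unadjusted p under 0.05 against 584 without it, and left the differences as they were. Deviations of same-numbered libraries had correlations of -0.077, 0.208 and -0.197 across genes for mice 1, 2 and 3. These lay within the range of unlike-numbered libraries, -0.343 to 0.344. The labels state no pairing, and so few correlations cannot exclude one. Leaving out a library leaves 2 mice in its group, whose spread is pooled with the other.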
